A study of Homo sapiens with 4 samples.

Results

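The human tissue kallikreins KLK5 to KLK14 are 10 neighbouring genes of chromosome 19 that encode secreted serine proteases. Their rows were taken from the deposited table of RNA-Seq values by gene symbol, on the condition that the row lay on an assembled chromosome. This gave 11 of the 62077 rows for the 10 genes, because KLK9 stood on a row of its own (ENSG00000213022) and on a second row (ENSG00000269741) that spanned KLK8 and KLK9. The own row was used for KLK9. The cells were FaDu, an established line of squamous cell carcinoma of the hypopharynx, kept in DMEM with serum at 5% CO2. They carried a lentiviral short hairpin RNA, either a scrambled control or one against TET1 (TET1-si), and were held in normoxia or for 19 h in hypoxia at 1% O2. The 4 groups were therefore N-scr and N-si in normoxia and H-scr and H-si in hypoxia, with 1 library each. The infected cells were used some days after infection, and no drug selection or number of independent infections was given for these libraries, so that a difference between scrambled and TET1-si libraries could not be told apart from a difference between 2 infected cultures.

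Kallikreins are made as inactive precursors and are switched on outside the cell when a short propeptide is cut off, often by another kallikrein. In skin and other stratified epithelia KLK5 can start such a cascade by activating itself, KLK7 and KLK14, and the active enzymes cleave the desmosomal proteins that hold surface cells together. LEKTI, the product of SPINK5, and other small inhibitors keep the cascade in check, and several kallikreins also cleave protease-activated receptors. TET1 is a dioxygenase that oxidizes 5-methylcytosine, which in human DNA is found mostly where C is followed by G, to 5-hydroxymethylcytosine.

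All 10 genes were protein coding, lay on the minus strand and together covered chr19:51446559-51587502 (hg19), a span of 140.9 kb. The gaps between neighbours ran from 0.399 kb, between KLK8 and KLK9, to 20.98 kb, between KLK12 and KLK13. RefSeq promoter entries of GRCh38.p14, each holding 250 bases before and 50 after an annotated start, were available for 9 of the 10 genes in 16 entries, with none for KLK8. Each entry had 1 exact match on chromosome 19 of GRCh37, and the hg19 positions come from that match. The promoters of KLK6, KLK5, KLK10 and KLK11 are shown because these 4 genes differed between scrambled and TET1-si libraries in the same direction and beyond counting error in both oxygen states. They are written 5′ to 3′ on the minus strand with each CG in capitals, as the dinucleotide on which TET1 substrates lie. For KLK10 and KLK11 the entry nearest to the upstream end of the locus is given.
KLK6: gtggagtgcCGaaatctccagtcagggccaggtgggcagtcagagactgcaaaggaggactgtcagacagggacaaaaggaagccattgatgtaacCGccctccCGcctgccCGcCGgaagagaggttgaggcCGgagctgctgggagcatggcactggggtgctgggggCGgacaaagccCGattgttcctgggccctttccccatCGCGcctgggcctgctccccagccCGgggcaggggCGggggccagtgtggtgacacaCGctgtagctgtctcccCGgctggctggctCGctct
KLK5: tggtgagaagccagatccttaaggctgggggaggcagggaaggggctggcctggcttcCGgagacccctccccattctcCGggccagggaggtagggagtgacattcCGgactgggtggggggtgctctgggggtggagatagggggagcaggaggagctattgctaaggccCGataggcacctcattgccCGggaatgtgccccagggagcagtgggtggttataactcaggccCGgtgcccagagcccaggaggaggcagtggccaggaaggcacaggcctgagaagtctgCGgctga
KLK10: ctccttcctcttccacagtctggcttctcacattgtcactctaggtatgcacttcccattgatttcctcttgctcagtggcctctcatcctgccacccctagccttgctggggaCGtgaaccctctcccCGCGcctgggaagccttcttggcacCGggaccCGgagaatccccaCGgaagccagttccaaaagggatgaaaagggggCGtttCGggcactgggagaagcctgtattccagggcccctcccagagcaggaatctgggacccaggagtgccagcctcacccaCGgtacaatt
KLK11: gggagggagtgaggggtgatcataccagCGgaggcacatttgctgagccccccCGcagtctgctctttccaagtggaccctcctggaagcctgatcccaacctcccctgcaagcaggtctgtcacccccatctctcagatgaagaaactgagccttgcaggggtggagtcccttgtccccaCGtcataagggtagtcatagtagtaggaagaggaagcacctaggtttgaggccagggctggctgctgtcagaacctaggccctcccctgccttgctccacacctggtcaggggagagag
The KLK6 promoter (chr19:51472798-51473097) held 15 CG, against a median of 14 over all 35116 RefSeq promoters. The KLK5 promoter (chr19:51456245-51456544) held 7, the KLK10 promoter (chr19:51523068-51523367) held 9 and the KLK11 promoter (chr19:51530853-51531152) held 3. Of the 16 entries, 11 lay below the median of 14, and the range was from 2 in a KLK14 entry to 23 in a KLK13 entry. The letters ACGTG, a form of the core of the element bound by hypoxia-inducible factors, were searched on both strands. They were present in 4 entries of 3 genes (KLK9, KLK10 and KLK11), while 21.4% of all promoters held them. In the sequences shown they lay at position -137 from the start in KLK10, and at -71 on the opposite strand in KLK11. The other form of the core, GCGTG, was not searched. A promoter without ACGTG can therefore still hold the core, as the KLK6 sequence shown does on the opposite strand. TGANTCA, the letters of the AP-1 site, and TATAAA were in none of the 16 entries, and in 7.71% and 11.5% of all promoters. These matches describe the letters only, since neither methylation nor factor binding at these promoters was analysed here.

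Levels are given as FPKM, fragments per kilobase of exon scaled to the number of mapped fragments, as the authors deposited them, so they are per length and can be set side by side between genes. Recovered depths were 22360000 to 24400000 reads per library, and approximate reads per gene were worked back from them. With 1 library per group no p-value is given, and every difference below is one between single libraries. The 95% intervals of log2 ratios are exact Clopper-Pearson intervals on those approximate reads and cover counting error only. TET1 itself was listed at 0.129 FPKM in N-scr against 0.0493 in N-si, and 0.331 in H-scr against 0.122 in H-si, which was 2.63-fold lower in TET1-si in normoxia and 2.71-fold lower in hypoxia. These low values rest on approximately 28, 11, 76 and 26 reads in the same order. The log2 intervals ran from -2.60 to -0.39 in normoxia and from -2.12 to -0.76 in hypoxia. NDRG1, a hypoxia-induced gene, was 31.2-fold higher in H-scr than in N-scr and 20.6-fold higher in H-si than in N-si. For EGLN3 these ratios were 24-fold and 10.2-fold, and for VEGFA 2.15-fold and 1.75-fold. CA9 was listed at 0.180 FPKM in N-scr against 0 in N-si, and 7.82 in H-scr against 0.506 in H-si. The size of the hypoxia response in such genes therefore was not alike in the scrambled and TET1-si libraries. All 10 squamous epithelial markers checked had a mean of 1 FPKM or more. Of 8 fibroblast markers 3 (COL1A2, LUM and PDGFRA) and of 7 leukocyte markers 2 (CD3E and MS4A1) were listed at 0 in all 4 libraries. On the same lists COL1A1 was at 5.29 to 37.0 FPKM, CD14 at 1.45 to 3.46 and ITGAM at 0.994 to 2.25. The endothelial cadherin CDH5 was listed at 8.75 to 45.5 FPKM. These markers therefore do not settle which cell types were absent. In such bulk RNA, fewer cells with a transcript and less of it per cell cannot be told apart.

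KLK6, KLK5 and KLK10 made up most of the kallikrein RNA in the 4 libraries. Together they held 93.9% of the summed FPKM of the 10 genes in N-scr against 97.6% in N-si, and 79.2% in H-scr against 96.6% in H-si. KLK6, a trypsin-like protease first studied in brain and in tumours, was listed at 38.6 FPKM in N-scr against 239.6 in N-si, and 12.3 in H-scr against 122.6 in H-si. It was the highest kallikrein everywhere but in H-scr. Among the 15057 genes with a mean of 1 FPKM or more, its percentile ran from 49.8 in H-scr to 96.5 in N-si.

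**Figure D1:**
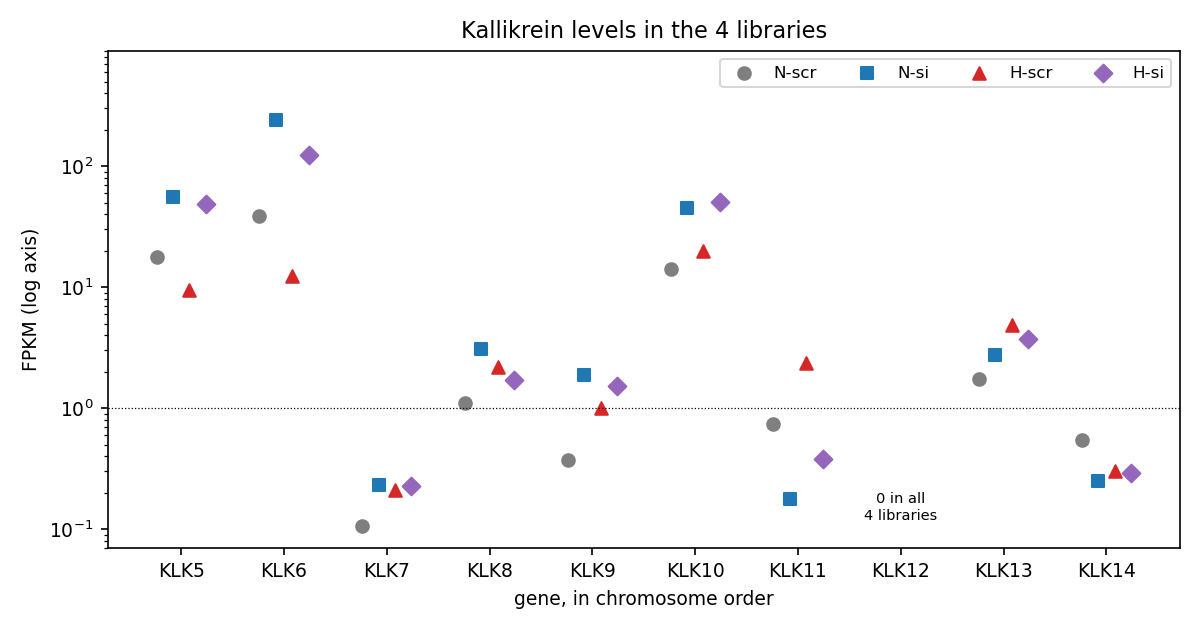
Level of each kallikrein in the 4 libraries, as FPKM on a log axis, with the genes in chromosome order and 1 point per library. The dotted line marks 1 FPKM; KLK6, KLK5 and KLK10 lie above it in every library, both TET1-si points of these genes lie above both scrambled points, and KLK12 was listed at 0 throughout.

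KLK5, the initiator of the epidermal cascade, was listed at 17.7 FPKM in N-scr against 55.7 in N-si, and 9.41 in H-scr against 48.5 in H-si. The 2 TET1-si libraries were thus the high ones in both oxygen states. KLK10, also known as NES1 and described as lost in many breast cancer lines, was listed at 14.2 FPKM in N-scr against 45.2 in N-si, and 19.9 in H-scr against 50.6 in H-si. It was the highest kallikrein in H-scr, where its level exceeded that of KLK6 with a log2 counting interval from 0.53 to 0.86. In H-si the levels of KLK10 and KLK5 could not be separated by counting, with an interval from -0.03 to 0.15.

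A second tier held KLK13, KLK8 and KLK9. KLK13, a trypsin-like enzyme of stratified epithelia, was listed at 1.75 FPKM in N-scr against 2.73 in N-si, and 4.90 in H-scr against 3.73 in H-si. KLK8, or neuropsin, known from skin and hippocampus, was listed at 1.10, 3.09, 2.20 and 1.70 FPKM in the same order, on approximately 18, 53, 38 and 27 reads. KLK9 was listed at 0.372, 1.86, 0.995 and 1.53 FPKM, on approximately 10, 54, 29 and 41 reads. For each of the 3, N-scr was the lowest library. The row that spans KLK8 and KLK9 was listed at 0.640, 0.880, 0.491 and 1.77 FPKM, and how its reads were divided from those of the KLK8 and KLK9 rows was not given in the sources used here.

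The remaining 4 genes had a mean FPKM below 1. KLK11, also called hippostasin, was listed at 0.745 FPKM in N-scr against 0.178 in N-si, and 2.34 in H-scr against 0.382 in H-si, on approximately 16, 4, 55 and 8 reads. Unlike KLK5, KLK6 and KLK10, both scrambled libraries lay above both TET1-si libraries. KLK7, the chymotrypsin-like enzyme that KLK5 activates in skin, was listed at 0.106 to 0.231 FPKM on approximately 4 to 10 reads. KLK14, another target of KLK5, was listed at 0.249 to 0.541 FPKM on approximately 5 to 10 reads. KLK12 was listed at 0 in all 4 libraries.

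The 6 genes with a mean of 1 FPKM or more were KLK5, KLK6, KLK8, KLK9, KLK10 and KLK13, and counts of 2-fold differences refer to them. KLK9 passed that limit with a mean of 1.19 and KLK11 missed it with 0.912. In each oxygen state KLK9 was higher and KLK11 lower in the TET1-si library. The limit itself therefore affected the counts of TET1-si differences. The other kallikreins at the same locus were near 0. KLK1, the tissue kallikrein that releases kinins, reached 0.349 FPKM in H-scr. KLK3, which encodes prostate-specific antigen, and KLK4 were above 0 in H-si only, on approximately 4 reads and 1 read. KLK2, KLK15 and the pseudogene KLKP1 were listed at 0 in all 4 libraries.

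**Figure D2:**
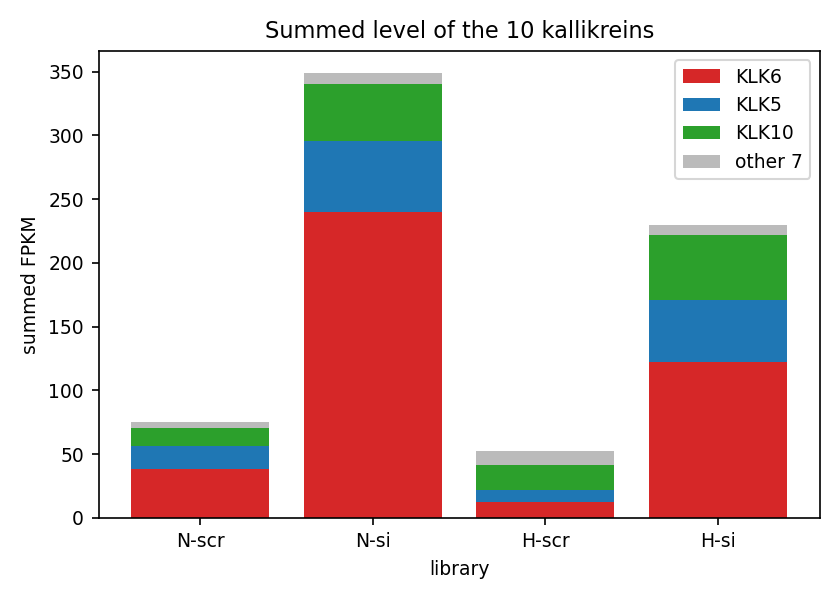
Summed FPKM of the 10 kallikreins in each library, stacked by gene on an axis that starts at 0. The sums were 75.2 in N-scr against 348.9 in N-si, and 52.6 in H-scr against 229.7 in H-si, and KLK6 (red) gave from 23.4% of the sum in H-scr to 68.7% in N-si.

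The first comparison asked how the kallikreins differed when TET1 was knocked down in normoxia. KLK6, KLK5 and KLK10, the abundant members, were 6.21-fold, 3.14-fold and 3.18-fold higher in N-si than in N-scr, and KLK8 and KLK9 were higher as well. Of the 6 kallikreins with a mean of 1 FPKM or more, 5 were higher by 2-fold or more and 0 were lower, on the scale of log2(FPKM + 0.1). Over all 15057 such genes 12.1% were higher and 5.56% lower by this rule. Median-of-ratios scaling changed that background to 9.32% and 7.45% and left the count of kallikreins at 5. A pseudocount of 1 gave 4 higher, against 7.73% of genes. With no minimum 5 were higher and 1, KLK11, was lower, against 5.98% and 3.72% of 61845 rows. The median change of all 10 kallikreins was 1.05, against 0.15 for all genes tested and 0.14 for the 871 protein-coding genes of chromosome 19. Here and below the kallikrein median has no minimum and includes KLK12 at 0. The genes set beside it had a mean of 1 FPKM or more, so the 2 sets are unlike. The median of 1.05 lay between KLK8 and KLK7, the latter on approximately 10 against 4 reads.

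For the cascade initiator KLK5 the log2 ratio of N-si to N-scr had an interval from 1.51 to 1.79, on approximately 1768 and 527 reads. For KLK6 it ran from 2.54 to 2.73, on approximately 7108 and 1071 reads. For KLK10 it ran from 1.56 to 1.78. These 3 ratios were far outside counting error. KLK8 was 2.81-fold higher, with an interval from 0.67 to 2.32, and KLK9 5.02-fold higher, with an interval from 1.35 to 3.48, both wide because few reads lay behind them. KLK13 was 1.55-fold higher, with an interval from 0.19 to 1.12. KLK11 was the exception, 4.19-fold lower in N-si with an interval from -4.14 to -0.46. The intervals of KLK7 and KLK14 included 0.

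The same comparison in hypoxia, H-si against H-scr, asked whether the difference was present at low oxygen. KLK6 was 9.94-fold higher, KLK5 5.16-fold higher and KLK10 2.54-fold higher in H-si. Of the 6 kallikreins counted, these 3 were at least 2-fold higher and 0 were at least 2-fold lower. The background shares were 12.0% higher and 8.35% lower, or 9.67% and 10.2% after median-of-ratios scaling, which left the count at 3. The median change of the 10 kallikreins was 0.04, against 0.10 for all genes tested, with members from -2.34 for KLK11 to 3.30 for KLK6. That median lay between KLK12, listed at 0, and KLK7, on approximately 9 reads in each library. It therefore does not describe the members with more reads.

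The log2 ratio had counting intervals from 3.16 to 3.47 for KLK6, from 2.18 to 2.55 for KLK5 and from 1.25 to 1.44 for KLK10. KLK13 was 1.32-fold lower in H-si, with an interval from -0.72 to -0.07. For KLK8 the interval ran from -1.14 to 0.38 and for KLK9 from -0.10 to 1.36, so that neither was distinguishable from no difference at this depth. KLK11 was 6.14-fold lower in H-si, with an interval from -3.94 to -1.58. KLK11 was therefore lower and KLK5, KLK6 and KLK10 higher in the TET1-si library in both oxygen states, beyond counting error in each case. The summed FPKM of the 10 genes was 4.64-fold higher in N-si than in N-scr and 4.36-fold higher in H-si than in H-scr. Without KLK6 these ratios were 2.99 and 2.66.

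**Figure D3:**
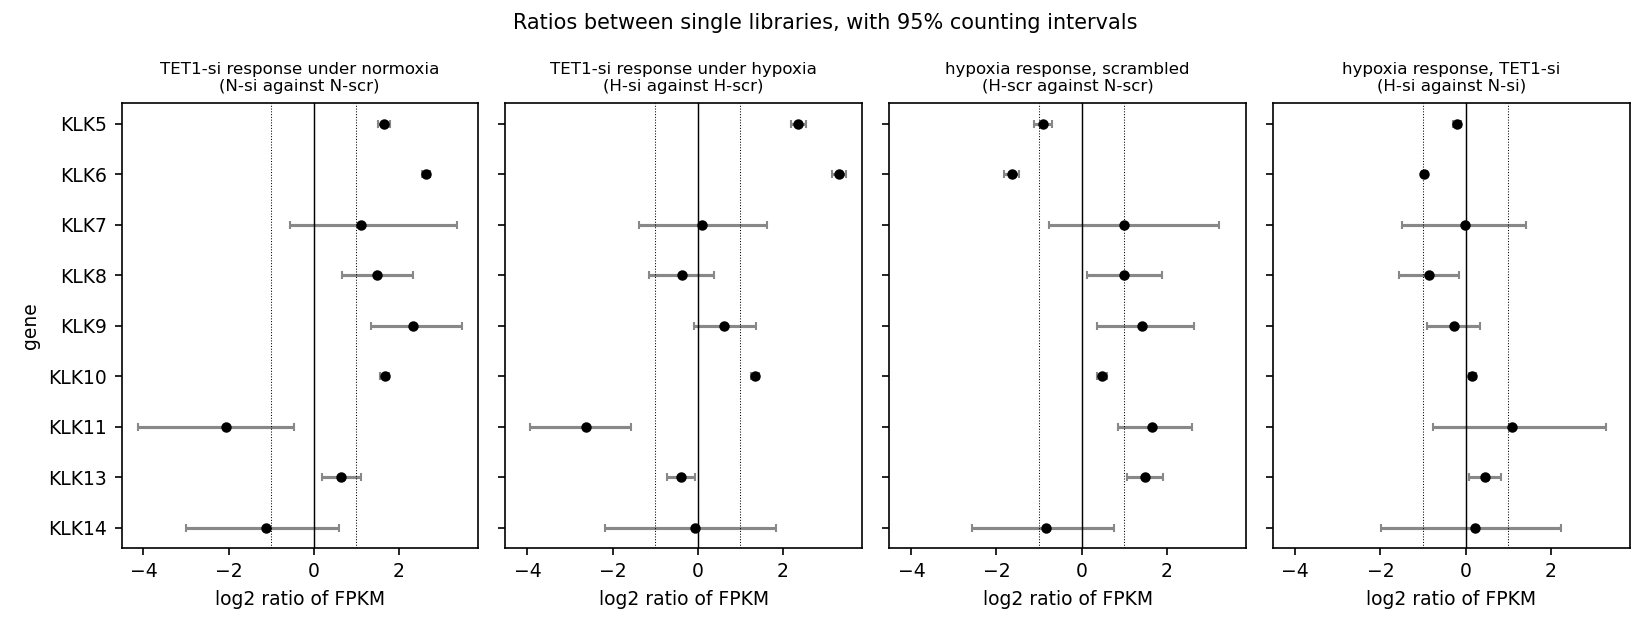
Log2 ratios of FPKM between single libraries for the 9 kallikreins above 0, in 4 panels, 1 per contrast. Points are ratios, bars are 95% counting intervals and dotted lines mark a 2-fold difference; in both TET1-si panels KLK5, KLK6 and KLK10 lie to the right of 1 and KLK11 lies to the left of -1.

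Markers of the cell state moved along with these differences. The summed level of the 10 squamous epithelial markers was 4999 and 7857 FPKM in N-scr and H-scr and 2092 and 4161 in N-si and H-si. Within the list, the basal keratin KRT14 was 86.5-fold lower in N-si and 70.9-fold lower in H-si, KRT6A 171.7-fold and 306.1-fold lower, and KRT5 5.10-fold and 2.79-fold lower. The list did not move as one, since PKP1, EPCAM, JUP and CDH1 were higher in TET1-si in both oxygen states, PKP1 by 1.72-fold and 1.94-fold, EPCAM by 1.33-fold and 1.61-fold, JUP by 1.42-fold and 1.20-fold and CDH1 by 1.49-fold and 1.37-fold. TP63 was listed at 42.1 to 54.8 FPKM, and the sum was carried mostly by KRT5 and KRT17. The summed level of the 5 luminal or glandular markers was 3396 and 3962 FPKM in the scrambled libraries and 1119 and 1808 in the TET1-si libraries. Among markers of other cell types, 1 of 8 for fibroblasts (COL1A1), 2 of 7 for leukocytes (CD14 and ITGAM) and 2 of 4 found for endothelium (CDH5 and VWF) had a mean of 1 FPKM or more. The summed fibroblast level was 5.30 FPKM in N-scr against 14.1 in N-si, and 28.7 in H-scr against 37.2 in H-si, nearly all of it COL1A1, and the leukocyte sum was 2.79 to 5.87 FPKM. CDH5 was listed at 8.75 FPKM in N-scr against 21.8 in N-si, and 16.0 in H-scr against 45.5 in H-si. The part of these markers in the kallikrein differences was not tested.

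The next comparison asked how the kallikreins differed between hypoxia and normoxia in cells with the scrambled control. The members split. KLK6 was 3.13-fold lower and KLK5 1.89-fold lower in H-scr than in N-scr, whereas KLK13 was 2.79-fold higher, KLK9 2.68-fold higher and KLK8, which is next to it, 1.997-fold higher. On the log2(FPKM + 0.1) scale 2 of the 6 counted genes, KLK9 and KLK13, were at least 2-fold higher and KLK6 was the 1 gene at least 2-fold lower. The background was 12.9% higher and 4.53% lower. KLK8, with a change of 0.94, and KLK5, with -0.91, did not reach 2-fold on this scale. The median change of the 10 kallikreins was 0.54, against 0.05 for all genes tested. That median lay between KLK10 and KLK7, the latter on approximately 9 against 4 reads, and does not describe members that split.

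The counting interval ran from -1.82 to -1.47 for the KLK6 log2 ratio and from -1.12 to -0.71 for that of KLK5. The intervals ran from 1.07 to 1.92 for KLK13, from 0.36 to 2.64 for KLK9 and from 0.14 to 1.88 for KLK8. KLK10 was 1.40-fold higher, with an interval from 0.36 to 0.61. KLK11 was 3.14-fold higher, with an interval from 0.86 to 2.59, on approximately 55 against 16 reads. The summed FPKM of the 10 genes was 1.43-fold lower in H-scr, and 1.10 times that of N-scr without KLK6.

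In TET1-si cells no counted kallikrein differed 2-fold between hypoxia and normoxia. KLK6 was 1.95-fold lower in H-si than in N-si, KLK8 1.82-fold lower and KLK13 1.37-fold higher. Of the 6 counted genes 0 lay 2-fold up and 0 lay 2-fold down, against a background of 12.5% and 8.66%. Rescaling to TPM moved this background to 16.4% and 6.96% and left both counts at 0. The intervals excluded 0 for KLK6 (-1.03 to -0.91), KLK8 (-1.57 to -0.15), KLK5 (-0.30 to -0.10), KLK13 (0.07 to 0.83) and KLK10 (0.09 to 0.24). They included 0 for KLK7, KLK9, KLK11 and KLK14. The summed FPKM was 1.52-fold lower in H-si than in N-si and nearly equal, with a ratio of 0.979, without KLK6.

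The difference of the hypoxia responses was taken as the log2 ratio of H-si to N-si minus that of H-scr to N-scr, with an interval from a normal approximation on the reads. It was 0.72 for KLK5 (0.49 to 0.94) and 0.68 for KLK6 (0.50 to 0.86), so the lower level in hypoxia was less pronounced in TET1-si cells for both. It was negative for KLK8 (-1.86, from -2.91 to -0.81), KLK9 (-1.70, from -2.90 to -0.51), KLK13 (-1.03, from -1.58 to -0.48) and KLK10 (-0.32, from -0.46 to -0.18). The intervals of KLK7, KLK11 and KLK14 included 0. KLK8 on its own row changed direction, being higher in hypoxia in scrambled cells and lower in TET1-si cells. The row that spans KLK8 and KLK9 went the other way, with a difference of 1.39 (0.26 to 2.52). It was 2.01-fold higher in H-si than in N-si, with an interval from 0.33 to 1.69. How reads were divided among these 3 rows is not known, and its part in these differences was not tested. The median over the 10 genes, on the log2(FPKM + 0.1) scale, was -0.46, against -0.06 for all genes tested. It lay between KLK10 and KLK7, the latter on approximately 4 to 10 reads per library.

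A set of 3 inequalities on FPKM, those of the published methods, was then applied, asking that H-scr be more than 2 times H-si and also more than N-scr, and that N-si not exceed N-scr. KLK11 was the 1 kallikrein of the 10 that met them, with no minimum on its level, and 9.41% of the 28033 genes above 0 in any library did so. With a mean of 1 FPKM or more, 0 of the 6 kallikreins met them, against 3.84% of genes. The inequalities turned round were met by KLK5 and KLK6, which is 2 of 6, against 3.23% of genes with a mean of 1 FPKM or more and 3.70% of genes above 0. The contrasts and criteria use the same 4 libraries, so they do not give separate evidence of one another.

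Other annotated transcripts within the span were examined because no source states that strand was kept, so that a kallikrein and a gene on the opposite strand could share reads. The plus-strand non-coding RNA CTC-518B2.12 lies wholly inside KLK10, over 361 bp, and was listed at 16.3 FPKM in N-scr against 69.5 in N-si, and 29.5 in H-scr against 71.7 in H-si, the same order of libraries as KLK10. Its transcript of 240 bp barely exceeds the length offset of 212 bp, so its reads could not be worked back. Its FPKM can rest on few reads and should not be set beside that of KLK10 as a level. CTB-147C22.8 overlaps KLK5 by 2909 bp and KLK6 by 5019 bp, and was listed at 2.87, 12.5, 2.69 and 10.7 FPKM. CTB-147C22.9 overlaps KLK6, KLK7, KLK8 and KLK9 and was listed at 0.126 to 1.26 FPKM. Levels of these rows and of the kallikreins they overlap are uncertain to the extent that reads were shared. CTC-518B2.9, which overlaps KLK12, was listed at 0 in all 4 libraries.

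Within 500 kb of the span there were 73 further rows, of which 11 had a mean of 1 FPKM or more. Of these 11, 5 were at least 2-fold higher and 0 lower in N-si, with a median change of 0.52. Over all genes tested the shares were 12.1% and 5.56% and the median 0.15. In H-si 4 were higher and 1 lower, with a median change of 0.74, against 12.0%, 8.35% and 0.10. Among the rows higher in both, CTD-2616J11.9 has a transcript of 219 bp inside ETFB on the opposite strand, and its reads could not be worked back. C19orf81, higher in N-si, rested on approximately 33 against 8 reads. EMC10 and ZNF175, on many more reads, were at least 2-fold higher in both. Higher levels in TET1-si were thus not confined to the kallikreins at this locus. In the hypoxia contrast 2 were higher and 1 lower in scrambled cells, against 12.9% and 4.53%. In TET1-si cells 1 was higher and 1 lower, against 12.5% and 8.66%. In the nearest such gene on either side N-scr was the highest library. C19orf48, on the KLK5 side, was listed at 120.2 FPKM in N-scr against 97.3 in N-si, and 67.0 in H-scr against 32.1 in H-si. CTU1, a tRNA-modifying enzyme gene on the KLK14 side, was listed at 2.07, 1.85, 0.824 and 1.35 FPKM. Farther out, EMC10, a subunit gene of the endoplasmic reticulum membrane complex, was listed at 83.0, 205.2, 74.9 and 190.7 FPKM.

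**Figure D4:**
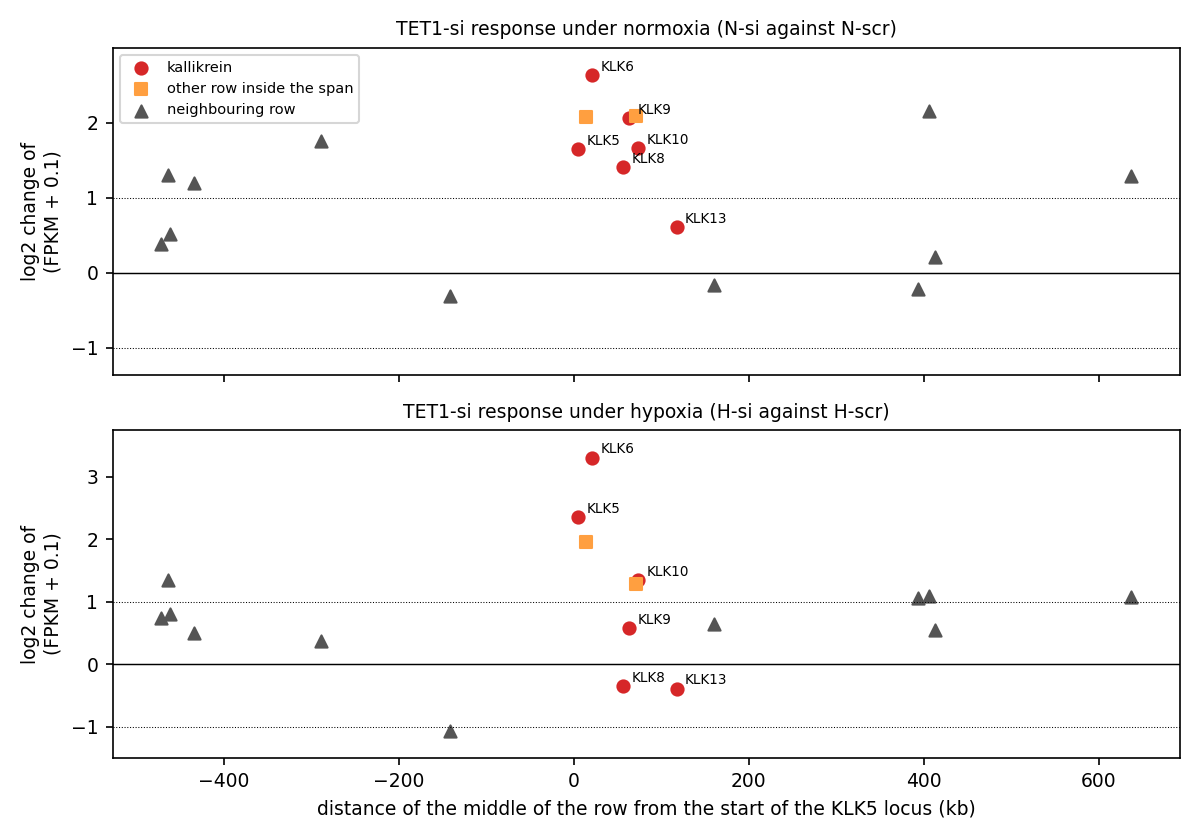
Change after TET1-si in normoxia (top) and in hypoxia (bottom), as log2 of FPKM + 0.1, against the distance in kb of the middle of each row from the start of the KLK5 locus. Only rows with a mean of 1 FPKM or more are drawn, dotted lines mark a 2-fold difference, and KLK6 is the highest point in both panels with changes of 2.63 and 3.30.

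Genes that act on kallikreins were then described from lists of activators, inhibitors, receptors and substrates. Of 13 activating or cascade proteases 7 had a mean of 1 FPKM or more, and their summed level was lower in TET1-si, at 248.3 FPKM in N-si against 409.6 in N-scr and 390.1 in H-si against 684.3 in H-scr. PLAU, the urokinase gene, was 2.34-fold lower in N-si and 2.13-fold lower in H-si, and CTSL1, the gene of the lysosomal protease cathepsin L, 2.74-fold and 2.11-fold lower. PLAT, which encodes tissue plasminogen activator, was 5.19-fold higher in H-scr than in N-scr and 3.61-fold lower in H-si than in H-scr. PRSS8, the gene of the membrane protease prostasin, was 3.02-fold higher in H-scr and 2.29-fold lower in H-si than in H-scr. ST14, the gene of matriptase, which can activate kallikrein precursors, was listed at 36.1 FPKM in N-scr against 60.0 in N-si, and 46.5 in H-scr against 64.8 in H-si. TMPRSS4 was likewise 1.99-fold and 2.46-fold higher in TET1-si in normoxia and hypoxia, and TMPRSS13 1.38-fold and 1.81-fold. PLAU, CTSL1, PLAT and PRSS8 were lower in both, PLAT by only 1.07-fold in normoxia. PLAU was the largest part of the sum in every library, so the sum does not describe each gene. Counted over the 7 genes, 2 were at least 2-fold lower and 0 higher in N-si, and 4 were lower and 1, TMPRSS4, higher in H-si. In hypoxia 0 were lower and 3 were higher in each knockdown state, PLAT, PRSS8 and TMPRSS13 in scrambled cells and PRSS8, TMPRSS13 and TMPRSS4 in TET1-si cells.

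Of 16 inhibitors 10 had a mean of 1 FPKM or more. SPINK5, which encodes the main epidermal inhibitor of KLK5, KLK7 and KLK14, was listed at 2.11 FPKM in N-scr against 1.20 in N-si, and 3.15 in H-scr against 2.79 in H-si, and was 1.75-fold lower in N-si with an interval from -1.18 to -0.44. SPINK9, an inhibitor of KLK5 in palm and sole skin, was listed at 1.00, 3.34, 1.04 and 6.37 FPKM, and was 6.11-fold higher in H-si than in H-scr with an interval from 1.41 to 4.21, on approximately 35 against 6 reads. SPINK6 was listed at 0 in all 4 libraries. The most abundant inhibitor was SPINT2, which encodes a Kunitz inhibitor of membrane serine proteases, at 420.6 to 853.6 FPKM. In N-si 2 of these 10 inhibitors were at least 2-fold higher, SERPINB6 and SPINK9, and 2 lower, SERPINA3 and SERPINE2. Over all genes tested the shares were 12.1% higher and 5.56% lower. In H-si SPINK9 was higher and 4 were lower, SERPINA1, SERPINA3, SERPINE2 and WFDC2. In hypoxia 4 were higher in scrambled cells, SERPINA1, SERPINA3, SLPI and WFDC2, and 0 lower, and the TET1-si cells had 3 higher, SLPI, SPINK5 and WFDC2, and 1 lower, SERPINE2.

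Of the 4 protease-activated receptor genes, F2R and F2RL1 had a mean of 1 FPKM or more. F2RL1, whose product PAR2 is cleaved by several kallikreins, was listed at 22.7 FPKM in N-scr against 22.5 in N-si, and 25.4 in H-scr against 16.1 in H-si, and neither gene differed 2-fold in any contrast. Of 15 substrate genes 8 had a mean of 1 FPKM or more. IL1B, a cytokine whose precursor can be cut by epithelial proteases, was listed at 14.5, 2.26, 25.2 and 1.89 FPKM, 6.44-fold lower in N-si and 13.3-fold lower in H-si. Of these 8 genes 2, DSG3 and IL1B, were at least 2-fold lower and 0 higher in N-si, while DSC2 and L1CAM were higher and IL1B lower in H-si. In hypoxia 0 differed 2-fold in scrambled cells, and DSG3 and L1CAM were higher in TET1-si cells. The desmosomal genes DSG2 and DSC3 did not reach 2-fold in any contrast, DSC2 was 2.55-fold higher in H-si than in H-scr, and DSG1 and DSC1, the desmosomal cadherins cleaved in shed skin, were below 1 FPKM in every library. Among 7 nuclear hormone receptor genes, of which some are known to drive kallikrein transcription, ESR1 was listed at 0.455, 3.45, 1.02 and 4.58 FPKM, 7.58-fold higher in N-si and 4.51-fold higher in H-si. ESR1 was 1 of 3 such genes with a mean of 1 FPKM or more, and the other two, VDR and NR3C1, did not differ 2-fold in any contrast.

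Keratinocyte differentiation, during which the kallikreins of skin are made, was followed with 15 genes, 6 of them with a mean of 1 FPKM or more. KRT13, a keratin of wet stratified epithelium, was listed at 83.9 FPKM in N-scr against 1.16 in N-si, and 120.6 in H-scr against 3.48 in H-si. TGM1, the transglutaminase of the cornified envelope, was listed at 7.89, 2.13, 39.6 and 13.5 FPKM. In N-si 3 of the 6 were at least 2-fold lower, KRT13, KRT4 and TGM1, and 2 were higher, SPRR1A and SPRR1B, which were below 1 FPKM in both normoxic libraries. In H-si 5 were lower and 0 higher, and in hypoxia 0 were lower and 4 were higher in each knockdown state, KRT4, SPRR1A, SPRR1B and TGM1 in scrambled cells and KRT13, KRT4, SPRR1B and TGM1 in TET1-si cells. KRT13 and KRT4 were lower in both TET1-si libraries than in either scrambled library, whereas TGM1 was lower in TET1-si within each oxygen state only. Below the limit, IVL went the other way. It was 4.78-fold higher in N-si (0.17 to 5.58) on approximately 11 against 2 reads, and 2.18-fold higher in H-si (0.47 to 1.81). FLG was 1.87-fold higher in N-si (0.21 to 1.63), and its interval in H-si included 0. Other genes below the limit did not exceed 0.243 FPKM.

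Finally, genes outside the locus were ranked by how near their profile over the 4 libraries came to that of KLK6, as the distance between row-centred log2(FPKM + 0.1) values over 9462 protein-coding genes with a mean of 5 FPKM or more. The nearest were CTD-2331H12.6 on chromosome 19 with a distance of 0.78, FAM20C with 0.78 and TGFB2 with 1.09, against a median of 3.21 over all candidates. FAM20C, a kinase gene of the secretory pathway, was listed at 4.11 FPKM in N-scr against 29.4 in N-si, and 2.20 in H-scr against 10.7 in H-si. TGFB2, which encodes a transforming growth factor, was listed at 14.5, 66.5, 9.67 and 50.5 FPKM. The median profile of the 6 counted kallikreins was nearest to ZNF428, C16orf52 and EHF, each at a distance of 0.22 against a median of 1.34. EHF, an epithelial ETS factor gene, was listed at 9.98, 28.9, 14.7 and 30.0 FPKM. With 4 points per profile such likeness is a description of these libraries.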

How the data were processed

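RNA-Seq was performed on 4 FaDu libraries, 1 per combination of oxygen and knockdown state. Per the labels, TruSeq mRNA libraries were run on a HiSeq instrument, and the authors used TopHat and Cufflinks on hg19, with Ensembl annotation according to the published methods. Tool versions, the annotation release and whether strand was kept are not given in the sources used here. The reads of 100 bp are called single end in the labels and paired end in the methods. The deposited values are gene-level FPKM, 1 column per library. Start positions in the table count from 0, so 1 was added.

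The 10 members were fixed by symbol, and the members and gene lists were chosen with earlier results of these data known. All 10 members, the other kallikreins, the nearest neighbours on each side, partner genes with a mean of 1 FPKM or more and the 3 nearest profiles could be named. Other genes named (EMC10 and other rows near the locus, the overlapping RNAs and genes listed at 0 or at low levels) were chosen after their values were seen. Changes are differences of log2(FPKM + 0.1), which understates the change of low genes, and called genes had a mean of 1 FPKM or more and a change of at least 1. Gene IDs on several rows (111 IDs, 232 rows) were left out. FPKM are not counts, so no count test was run, and 1 library per group gives no replicate error. An additive model of oxygen and knockdown would leave 1 residual degree of freedom and take the 2 factors to act independently, and was not run.

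Depth was recovered from genes with 1 exon, whose FPKM are whole numbers of reads over depth and length less an offset of 212 bp. From 97.7% to 98.1% of low values came out whole within 0.05. In normoxia this gave 22820000 reads (scrambled) and 24380000 (TET1-si), in hypoxia 24400000 and 22360000. Reads per gene are approximate, because they use the canonical transcript length of GENCODE v44lift37, which holds the IDs of 86.3% of rows. Intervals are exact Clopper-Pearson at 95%, and cover counting error only. The steps were tested on simulated data. Alternatives were pseudocounts of 1 and 0.01, no minimum or a mean FPKM of 5, median-of-ratios, upper-quartile and TPM scaling and, chosen after seeing the data, counting the row that spans KLK8 and KLK9. Python 3.11.15, numpy 2.4.6, pandas 2.3.3 and scipy 1.17.1 were used. No protein sequence was used here.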

Additional observations from a re-analysis of the deposited data

Results flagged for a closer look

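For KLK8 the response to hypoxia ran in opposite directions in the 2 knockdown states, and so did the response to TET1-si in the 2 oxygen states. On the log2(FPKM + 0.1) scale both differences were -1.76, since they are the same 4 values taken in another order. For KLK9 the hypoxia response was positive in scrambled cells and negative in TET1-si cells, a difference of -1.48. For KLK13 the TET1-si response was positive in normoxia and negative in hypoxia, a difference of -0.99. With 1 library in each group these differences were not tested, and each direction is that of a single pair of libraries. For KLK9 in TET1-si cells the counting interval of the hypoxia response, -0.89 to 0.34, included 0. For KLK8 that of the TET1-si response in hypoxia, -1.14 to 0.38, did as well. The row that spans KLK8 and KLK9 had a difference of opposite sign, 1.255. The directions for KLK8 and KLK9 therefore hold for their own rows only.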

How the results depend on the processing

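Most values kept their direction and size under the alternatives. Of 109 values that answer a comparison, 97 stayed within the limits set for a change (1.5 times for a count). Restricting the genes to a mean FPKM of at least 5, which leaves KLK5, KLK6 and KLK10, gave 3 kallikreins at least 2-fold higher after TET1-si in normoxia, 0 higher in hypoxia in scrambled cells, 0 meeting the 3 inequalities, and medians of 2.35 for TET1-si in hypoxia and -0.91 for hypoxia in scrambled cells. A minimum of 1 also gave 0 meeting the inequalities. In scrambled cells the count higher in hypoxia was 1 with a pseudocount of 1 and 4 after rescaling to TPM, when KLK8 and KLK11 joined KLK9 and KLK13. Without a minimum, and likewise after TPM, 1 kallikrein, KLK11, was at least 2-fold lower after TET1-si in normoxia and 1 in hypoxia. Counting the spanning row moved the median for TET1-si in normoxia from 1.05 to 0.68. Median-of-ratios scaling moved the median change of all genes from 0.15 to -0.0063 for TET1-si in normoxia and from 0.10 to -0.01 in hypoxia, and TPM raised it to 0.18 for hypoxia in either knockdown state, from 0.05 (scrambled) and 0.03 (TET1-si). Of single members only KLK7, at 4 to 10 reads, turned sign. The labels give no replicate numbers to pair libraries by, a fit of knockdown or oxygen with the other factor as a block (1 residual degree of freedom) was not run, and no library could be left out without losing its group. Depth limits the members below 1 FPKM, whose values rest on at most 55 reads.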
